A study of Mus musculus with 12 samples.

Results

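Cortical interneuron genes are described here as 10 genes chosen by symbol: *Gad1*, *Gad2*, *Slc32a1*, *Lhx6*, *Pvalb*, *Sst*, *Vip*, *Npy*, *Cck* and *Reln*. All 10 were found, among 36047 genes of the deposited table. RNAseq was performed on polyA RNA of mouse cortex, with 3 WT and 3 *Gde2*KO (*Gde2*-/-) libraries at 4 months and 3 of each genotype at 19 months. *Gde2*KO mice lack GDE2, a membrane enzyme that releases GPI-anchored proteins from the cell surface and is encoded by *Gdpd5*. The knockout is global, and the study used animals of both sexes. The study compared the genotypes at 19 months for splicing and at 4 months for pathways that change early.

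Interneurons are the inhibitory neurons of the cortex and release GABA. GABA is made from glutamate by the decarboxylases GAD67 (*Gad1*) and GAD65 (*Gad2*) and is loaded into vesicles by VGAT (*Slc32a1*). LHX6 is a transcription factor of interneurons born in the medial ganglionic eminence, which become mostly parvalbumin (*Pvalb*) or somatostatin (*Sst*) cells, while many cells from the caudal eminence make VIP or reelin. NPY and CCK are further interneuron peptides, and *Cck* is also transcribed in cortical pyramidal neurons. In adult cortex reelin is secreted by interneurons, and in development by Cajal-Retzius cells.

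Levels are given as normalized counts, the estimated reads of a gene divided by a size factor for the library, unless TPM (a level per transcript length, also divided by a size factor) is named. Bulk RNA holds all cells of the piece, so fewer cells of a type and less RNA per cell cannot be told apart. The 19-month libraries carry no replicate number and are called A, B and C. Estimated reads ranged from 46434270 to 59728494 at 4 months and from 3707927 to 44604721 at 19 months, where WT A (6734479) and *Gde2*KO A (3707927) were shallow. The members were still well covered, with at least 73 estimated reads in any library for *Lhx6* and at least 128 for each of the other 9. *Gdpd5*, the targeted gene, was lower in all 6 *Gde2*KO libraries than in any WT library of the same age. It had 684, 702 and 1199 normalized counts in 4-month WT against 417, 585 and 403 in *Gde2*KO (log2 fold change -0.85 ± 0.25 SE, limma Benjamini-Hochberg adjusted p = 0.463). At 19 months it had 1065, 1129 and 952 against 441, 456 and 560.1 (-1.11 ± 0.12 SE, limma adjusted p = 0.0111).

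The 4-month WT libraries 1 and 2 stood apart from the third, and every 4-month result below is read with this in view. The summed level of 8 hippocampal markers ranged from 1215 to 13880 normalized counts in 4-month WT, against 1185 to 2079 in 4-month *Gde2*KO. *C1ql2*, a dentate gyrus gene, had 2592 and 1819 normalized counts in WT 1 and 2, and 52.5 in WT 3. The 9 markers of striatal medium spiny neurons went the other way, from 5704 to 59674 in 4-month WT and from 29366 to 83628 in *Gde2*KO. *Ppp1r1b* (DARPP-32) had 2359 and 1513 normalized counts in WT 1 and 2, and 20306 in WT 3. No marker of either list was at 0 in any library. The sum of 5 endothelial markers was 4054 to 4992 in 4-month WT and 5171 to 5724 in *Gde2*KO, without overlap and with 0 of them called. The pyramidal marker *Slc17a7* (VGLUT1) was abundant throughout, at 34416 normalized counts or more. The third *Gde2*KO library of 4 months differed in another way, with a total of 41229086 normalized counts where the other 11 libraries had 30751064 to 35949224.

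**Figure D1:**
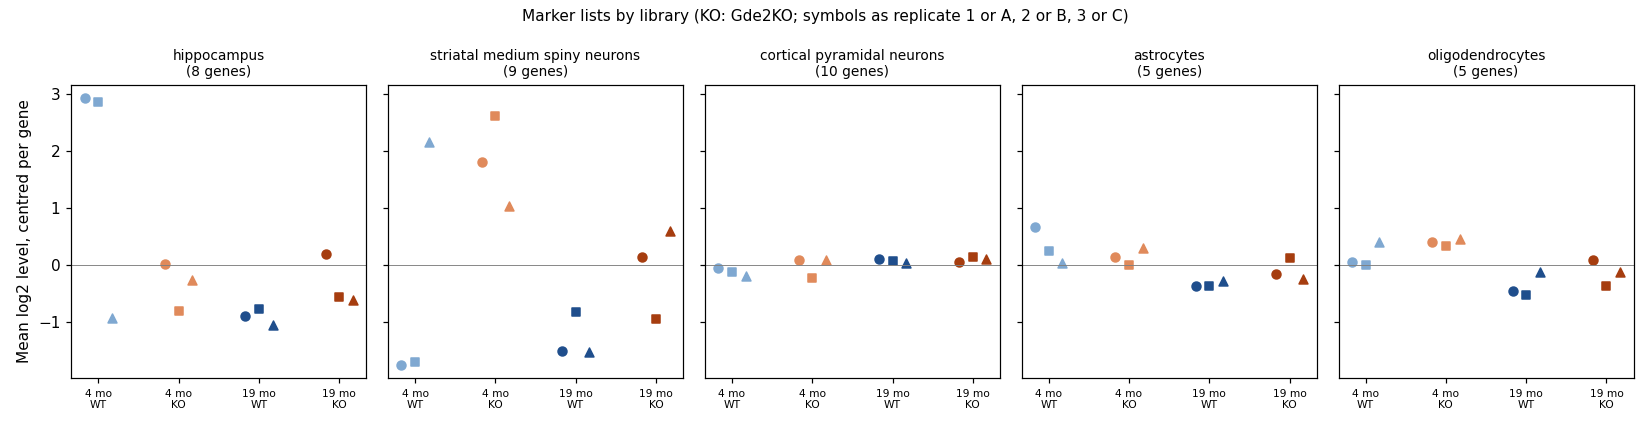
Mean log2 level of the genes of 5 marker lists in each of the 12 libraries, centred per gene (y axis), by group (x axis, n = 3 each). 4-month WT libraries 1 and 2 are highest for hippocampal markers and lowest for striatal ones, and the cortical pyramidal list varies least.

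By TPM, *Cck* was the most abundant of the 10 genes and *Lhx6* the least in all 4 groups. In 19-month WT the order was *Cck* (985 ± 82.1 TPM, SD, n = 3), *Sst* (550.0 ± 54.0), *Npy* (371 ± 47.2), *Gad1* (203 ± 5.33), *Pvalb* (171 ± 21.4), *Slc32a1* (76.5 ± 3.13), *Vip* (66.0 ± 10), *Gad2* (41.7 ± 1.15), *Reln* (27.7 ± 2.34) and *Lhx6* (17.2 ± 5.65). *Slc32a1* and *Vip* were the only neighbours in that order whose libraries overlapped. The order was the same in 19-month *Gde2*KO, where *Vip* and *Gad2* overlapped instead. At 4 months *Gad2* stood above *Vip* in both genotypes, with 54.9 ± 8.36 against 25.3 ± 11.3 TPM in WT and 62.1 ± 8.58 against 60.8 ± 33.1 TPM in *Gde2*KO, where the libraries overlapped.

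**Figure D2:**
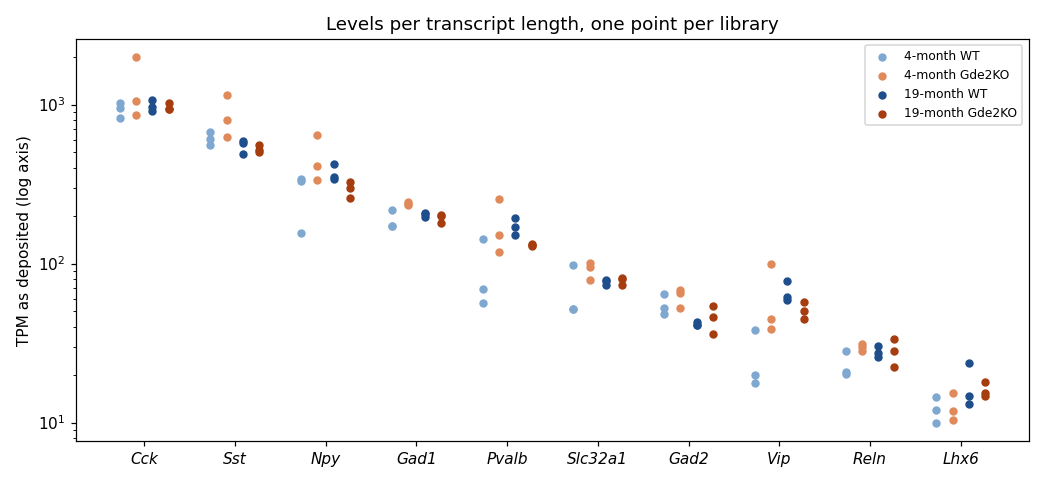
TPM of the 10 genes (log axis), 1 point per library, coloured by group. *Cck* lies between 828 and 1986 TPM and *Lhx6* between 9.92 and 23.6 TPM, and *Vip* and *Pvalb* spread most at 4 months.

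The first comparison asked how the genes differed between *Gde2*KO and WT cortex at 4 months. Of the 10 genes, 0 passed the test of limma (Benjamini-Hochberg adjusted p under 0.1 over 19035 genes, and an absolute log2 fold change above 0.721), where 0.126% of all genes tested did. At an unadjusted p under 0.05, 3 of the 10 genes had higher fitted values in *Gde2*KO, namely *Gad1*, *Pvalb* and *Vip*, as did 7.93% of all genes tested. The fitted log2 fold change was above 0 for 9 of the 10 genes, and the median over all genes tested was itself 0.11. Rescaling by the median ratio took that shift to 0.01 and left every member's sign as it was.

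The genes of GABA synthesis and loading are taken first. *Gad1* (chr2:70553072-70602014, + strand, GRCm38) had 9484, 9477 and 11933 normalized counts in the WT libraries and 13879, 12760.4 and 14438 in *Gde2*KO. All 3 *Gde2*KO libraries were above all WT libraries, by 1.34-fold in the fit (log2 0.42 ± 0.14 SE, limma adjusted p = 0.463). Higher values without overlap were found for 11.1% of all genes tested in this comparison. *Slc32a1* (chr2:158610767-158615748, + strand) had 2507, 2496 and 4713 in WT and 5080.2, 4626 and 4081 in *Gde2*KO. WT 3 lay inside the *Gde2*KO range, and WT 1 and 2 lay below it (log2 fold change 0.57 ± 0.25 SE, limma adjusted p = 0.463). *Gad2* (chr2:22622205-22693874, + strand) ranged from 4624 to 6321 in WT and from 5649.6 to 6904 in *Gde2*KO, and the groups overlapped (0.26 ± 0.16, limma adjusted p = 0.503). With WT 1 and 2 left out, the log2 fold changes against the 1 remaining WT library were 0.20 for *Gad1*, 0.01 for *Gad2* and -0.04 for *Slc32a1*. The summed striatal markers were split likewise, with 6313 and 5704 normalized counts in WT 1 and 2 and 59674 in WT 3. In *Gde2*KO they had 29366 to 83628. The part of striatal tissue in the values of these GABA genes was not tested.

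*Pvalb* (chr15:78191114-78206400, − strand) encodes the calcium-binding protein of fast-spiking basket and chandelier cells. It had 771, 924 and 1936 normalized counts in 4-month WT and 2104, 1561 and 3629 in *Gde2*KO. WT 1 and 2 were the lowest and *Gde2*KO 3 the highest of the 12 libraries, and WT 3 exceeded *Gde2*KO 2 (fold 2.05, log2 1.04 ± 0.40 SE, limma adjusted p = 0.463). Without WT 1 and 2 the log2 fold change was 0.24. *Lhx6* (chr2:36081953-36105408, − strand) had 469 to 679 normalized counts in WT and 531 to 778 in *Gde2*KO, with overlap (log2 0.18 ± 0.20 SE, limma adjusted p = 0.661).

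*Vip* (chr10:5639218-5647617, + strand), the peptide of interneurons that mostly contact other interneurons, had the largest fitted difference of the 10 genes. It had 434, 487 and 931 normalized counts in WT and 1126, 952 and 2564 in *Gde2*KO. The groups did not overlap, but WT 3 and *Gde2*KO 2 were close together (fold 2.41, log2 1.27 ± 0.41 SE, 95% interval 0.31 to 2.22, limma adjusted p = 0.463). WT 1 and 2 were the lowest of the 12 libraries for *Vip*. Its log2 fold change was 1.06 without WT 1, 1.14 without WT 2 and 1.61 without WT 3. *Npy* (chr6:49822710-49829507, + strand) had 2034, 902 and 1979 in WT and 2502, 1938 and 3970.5 in *Gde2*KO, and WT 2 alone was low (log2 0.80 ± 0.36 SE, limma adjusted p = 0.463, and 0.42 without WT 2). *Sst* (chr16:23889573-23890958, − strand) had 4874, 5173 and 5859.7 in WT and 7130.3, 5271 and 10364 in *Gde2*KO. *Cck* (chr9:121489824-121495694, − strand) had 7756, 8038 and 6692 in WT and 8705, 6751 and 16716 in *Gde2*KO. For all 4 peptides and *Pvalb*, *Gde2*KO 3 was the highest of the 12 libraries. Without it the log2 fold change of *Cck* was 0.04, against 0.41 ± 0.30 SE with all libraries (limma adjusted p = 0.544), and that of *Sst* was 0.21, of *Npy* 0.52 and of *Vip* 0.83.

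The 30 bases around a cyclic AMP response element core are shown for the 4 members that hold one, *Sst*, *Cck*, *Vip* and *Gad2*. All 10 genes have an entry among the RefSeq promoters (GRCm38.p6, 250 bases before to 50 after the start). The core TGACG, searched on both strands, was found in 4 of the 10 and in 20.81% of 32851 promoters, and the full palindrome TGACGTCA, which contains the core on both strands, in 1 of the 10 and in 1.79%. Capitals mark the match, read 5′ to 3′ along the gene, where CGTCA is the core on the opposite strand.
Sst, chr16:23890874-23890903, − strand: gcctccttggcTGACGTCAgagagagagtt
Cck, chr9:121495724-121495753, − strand: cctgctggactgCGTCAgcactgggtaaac
Vip, chr10:5639127-5639156, + strand: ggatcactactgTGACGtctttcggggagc
Gad2, chr2:22622282-22622311, + strand: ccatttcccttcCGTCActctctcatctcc
The matches begin 48, 47, 79 and 33 bases before the RefSeq start of *Sst*, *Cck*, *Vip* and *Gad2*. These letters were not found in the window of *Npy*. A match is a description of the sequence and was not tied to the expression values.

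*Reln* (chr5:21884454-22344702, − strand) encodes the secreted glycoprotein reelin. It had 2575, 3002 and 3249 normalized counts in 4-month WT and 2888, 3373 and 2366 in *Gde2*KO, with full overlap (log2 -0.04 ± 0.17 SE, limma adjusted p = 0.911), and its sign turned on the TPM scale (log2 0.38).

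**Figure D3:**
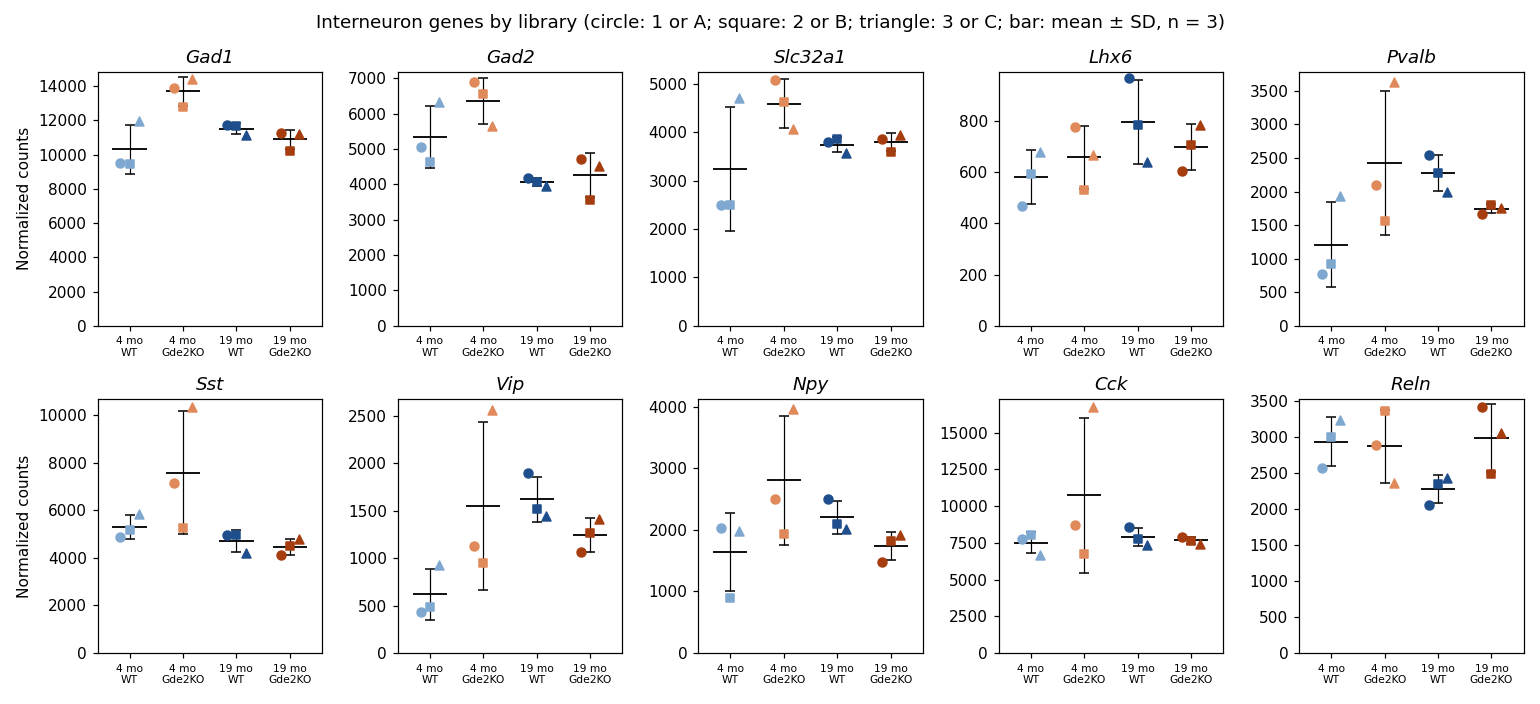
Normalized counts of the 10 genes (y axes from 0) in each library by group, with the mean and SD of 3 libraries. At 4 months the WT libraries 1 and 2 are low for *Slc32a1*, *Pvalb* and *Vip* and the third *Gde2*KO library is high for the peptides, and at 19 months *Pvalb*, *Vip* and *Npy* are lower and *Reln* higher in *Gde2*KO without overlap.

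The second comparison asked the same at 19 months, when the libraries of a group were closer together. Again 0 of the 10 genes passed the test (limma adjusted p under 0.1 over 18583 genes and the same fold), where 0.0969% of all genes tested did, and 4 had an unadjusted p under 0.05. Those were *Pvalb*, *Vip* and *Npy*, with lower values in *Gde2*KO (3.65% of all genes tested), and *Reln*, with higher ones (3.26%). Lower values without overlap were found for 3 of the 10 genes and for 8.32% of all genes tested. Higher values without overlap were found for 1 of the 10 and for 5.85% of all genes tested.

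*Pvalb* had 2544, 2282 and 1999.9 normalized counts in 19-month WT and 1667, 1803 and 1756 in *Gde2*KO. Every *Gde2*KO library was below every WT library, by 0.77-fold in the fit (log2 -0.38 ± 0.09 SE, 95% interval -0.58 to -0.17, limma adjusted p = 0.480). *Vip* had 1892, 1519 and 1447 in WT and 1062, 1262 and 1417 in *Gde2*KO. The closest WT and *Gde2*KO libraries, both C, were nearly level (log2 -0.38 ± 0.13 SE, limma adjusted p = 0.664). *Npy* had 2502, 2088 and 2015 in WT and 1485, 1814 and 1916 in *Gde2*KO (log2 -0.34 ± 0.12 SE, limma adjusted p = 0.647). The shallow libraries held the highest WT and the lowest *Gde2*KO value for each of these 3 genes. Without both, the log2 fold changes were -0.26 for *Pvalb*, -0.15 for *Vip* and -0.14 for *Npy* (limma adjusted p from 0.740 to 0.832).

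*Reln* had 2059.9, 2352 and 2431 normalized counts in 19-month WT and 3425, 2494 and 3061 in *Gde2*KO. All 3 *Gde2*KO libraries were above the WT libraries (fold 1.30, log2 0.38 ± 0.12 SE, limma adjusted p = 0.614, and log2 0.21 without the shallow libraries), but the TPM did not differ in this way, with 27.7 ± 2.34 in WT and 28.0 ± 5.50 in *Gde2*KO (SD, n = 3; log2 -0.001). The difference between the scales went with the transcripts to which reads were assigned. The full-length coding transcript ENSMUST00000161356.7 held 23.3%, 30.7% and 34.3% of *Reln* TPM in WT and 39.2%, 43.4% and 40.6% in *Gde2*KO. The short processed transcript ENSMUST00000160791.1 (chr5:21884895-21896068), at the 3′ end of the gene, held 47.8%, 37.0% and 28.0% in WT and 29.7%, 22.0% and 16.4% in *Gde2*KO, with overlap. At 4 months this transcript held 14.6 ± 2.60% in WT and 39.6 ± 19.3% in *Gde2*KO. Usage of *Reln* was not called at either age (limma diffSplice adjusted p = 0.979 at 19 months and 0.452 at 4 months). Cajal-Retzius markers were low at 19 months, with a summed level over 4 genes of 53.5 to 89.8 normalized counts in WT and 41.5 to 78.7 in *Gde2*KO. At 4 months the same sum was 107 to 211 in WT and 61.2 to 90.1 in *Gde2*KO without overlap, where all 4 log2 fold changes were below 0 (median -0.77) and 0 were called, while *Reln* overlapped. Their part in the *Reln* values was not tested.

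The GABA genes were nearly level between genotypes at 19 months. *Gad1* had 11727, 11673 and 11150.2 normalized counts in WT and 11238, 10221 and 11196 in *Gde2*KO, with overlap (log2 -0.08 ± 0.05 SE, 95% interval -0.20 to 0.04, limma adjusted p = 0.734). *Slc32a1* ranged from 3575 to 3860.1 in WT and from 3597 to 3952 in *Gde2*KO, and the interval of its log2 fold change was -0.11 to 0.16. The interval was -0.17 to 0.29 for *Gad2*, -0.26 to 0.12 for *Sst*, -0.18 to 0.10 for *Cck* and -0.54 to 0.18 for *Lhx6*. A 2-fold difference lay outside the interval of each of these 6 genes.

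Summed striatal markers ranged from 8130 to 10698 normalized counts in 19-month WT and from 9831 to 22220 in *Gde2*KO, and all 9 had a log2 fold change above 0 with a median of 1.14, 0 of them called. Of the 8 hippocampal markers, 1 passed the test, *Fibcd1* (log2 1.44 ± 0.15 SE, limma adjusted p = 0.0111), and the summed level was 867 to 1096 in WT and 1446 to 2206 in *Gde2*KO. The summed level of 5 astrocyte markers was also higher without overlap, at 22277 to 24013 in WT and 24261 to 32693 in *Gde2*KO. All 5 had a log2 fold change above 0 (median 0.14), with *Gfap* and *Aldh1l1* not overlapping between the groups, and 0 were called. The part of these 3 lists in the interneuron values was not tested.

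**Figure D4:**
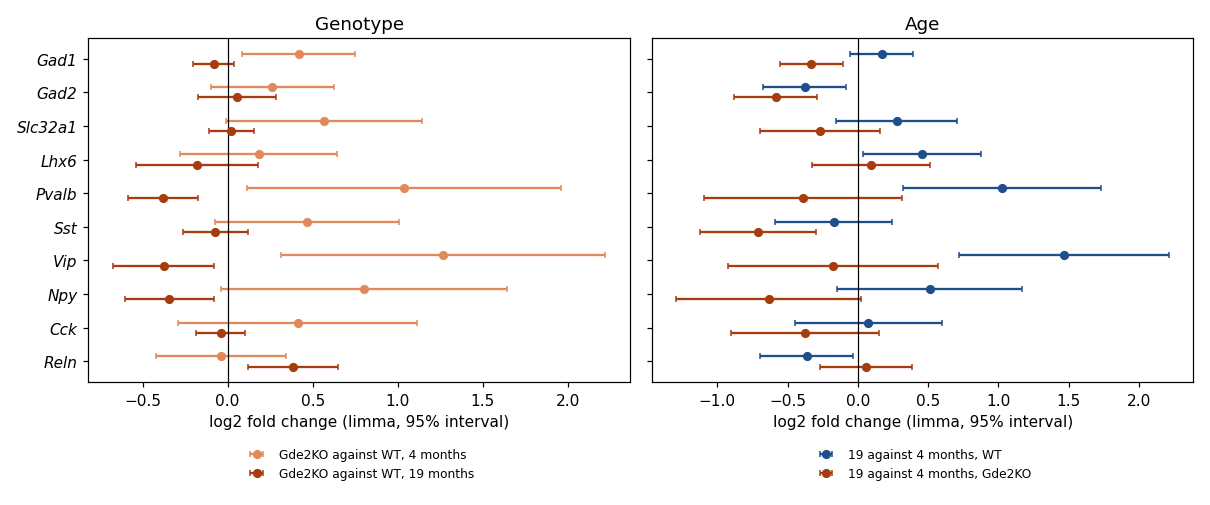
Log2 fold changes of the 10 genes with 95% intervals from limma, between genotypes at each age (left) and between ages in each genotype (right). Intervals at 4 months are wider than at 19 months for all 10 genes. In WT the age intervals of *Pvalb*, *Vip* and *Lhx6* lie above 0 and those of *Gad2* and *Reln* below 0. In *Gde2*KO those of *Gad1*, *Gad2* and *Sst* lie below 0.

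The genotype by age interaction, which asks whether the genotype difference changed with age, was called for 0 of the 10 genes (limma adjusted p under 0.1 over 18731 genes, 0.048% of all genes called). At an unadjusted p under 0.05, 4 had values below 0, as did 9.37% of all genes tested, with log2 interactions of -1.64 ± 0.49 SE for *Vip*, -1.42 ± 0.46 for *Pvalb*, -1.14 ± 0.43 for *Npy* and -0.50 ± 0.14 for *Gad1*, each with a limma adjusted p of 0.368. The median over all genes was -0.15. Without 4-month WT 3, which leaves the other pair of WT libraries, 5 of the 10 were called, but the share of all genes called rose to 11% in the same fit. Without WT 1 and 2, 0 were called against a single 4-month WT library, whose spread is taken from the other groups, and the value was -0.97 for *Vip* and -0.62 for *Pvalb*.

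Ages were compared within each genotype, in the same 12 libraries, so these comparisons share samples with those above. Age cannot be told apart from anything else that differs between the 4-month and 19-month libraries, depth among them. In WT cortex *Vip* and *Pvalb* rose from 4 to 19 months, 2 of 10 genes, where 13.7% of all genes tested were called and 6.29% were called higher. *Vip* was 2.76-fold higher (log2 1.47 ± 0.34 SE, limma adjusted p = 0.0144) and *Pvalb* 2.03-fold higher (1.02 ± 0.32, limma adjusted p = 0.0465). In both genes the 3 libraries of 19 months were above the 3 of 4 months, as for 19.3% of all genes tested. Without 4-month WT 1 and 2, which leaves 1 library at 4 months that is assumed to vary as the other groups do, neither was called, and 2.77% of all genes were. The log2 value was then 0.79 for *Vip*, still above the fold the call needs, and 0.23 for *Pvalb*. *Pvalb* was also not called without 4-month WT 1 (0.76), 4-month WT 2 (0.89), 19-month WT A (0.94) or 19-month WT B (1.02), while *Vip* stayed called without any single library. *Gad2* and *Reln* had lower values at 19 months without overlap, 2 of 10 genes against 26.7% of all genes tested. Neither had the fold the call needs (log2 -0.38 ± 0.14 SE, limma adjusted p = 0.0712 for *Gad2*, and -0.36 ± 0.15, 0.109 for *Reln*, whose sign turned on the TPM scale).

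In *Gde2*KO cortex 0 of the 10 genes were called between the ages, where 11.9% of all genes were, and at an adjusted p under 0.1 alone 3 of the 10 and 32.3% of all genes. *Sst* (log2 -0.71 ± 0.19 SE, limma adjusted p = 0.0244), *Gad2* (-0.58 ± 0.14, 0.0155) and *Gad1* (-0.33 ± 0.10, 0.0396) had an adjusted p under 0.1 but not the fold. The median over all genes tested was -0.21 in this comparison. Rescaling by the median ratio took that median to -0.04 and quantile normalization to -0.01, and *Gad1* then had log2 values of -0.16 (limma adjusted p = 0.230) and -0.19 (0.192), no longer under 0.1. *Sst* (-0.55 with both) and *Gad2* (-0.42 and -0.41) stayed under it. In each of these 3 genes the 19-month libraries were all below the 4-month ones, as also in *Slc32a1* and *Npy*, 5 of 10 genes against 29.9% of all genes tested. *Sst* reached the fold without 4-month *Gde2*KO 1 (-0.73), without 4-month *Gde2*KO 2 (-0.95) or without 19-month *Gde2*KO C (-0.76). *Npy* was called as well without 4-month *Gde2*KO 2 (-0.87), where 15.4% of all genes tested were called. Calls among all genes were 1999 without 4-month *Gde2*KO 1 and 2076 without 19-month *Gde2*KO C, and 2224 with all libraries. With any single library left out, the log2 value of *Sst* ran from -0.95 to -0.46 and that of *Npy* from -0.87 to -0.35. The smallest falls, -0.46 and -0.35, were those without 4-month *Gde2*KO 3, the highest library for both genes. Calls among all genes were 1096 in that fit.

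Ratios of TPM within a library do not depend on its size factor. At 19 months the ratio of *Pvalb* to *Sst* was 0.329, 0.295 and 0.308 in WT and 0.258, 0.259 and 0.235 in *Gde2*KO. The ratios of *Vip* to *Sst* (0.132, 0.107 and 0.121 against 0.0902, 0.0982 and 0.102) and of *Npy* to *Sst* (0.725, 0.607 and 0.693 against 0.519, 0.582 and 0.578) were also lower in *Gde2*KO without overlap. Each of these 3 gave p = 0.1 in a two-sided exact permutation test, the smallest that 3 against 3 allows, and 0.267 after adjustment over the 8 tests. The ratio of *Gad1* to *Gad2* overlapped at both ages (p = 0.4 at 19 months and 0.2 at 4 months, exact permutation test). At 4 months 0 of the 4 ratios separated the genotypes.

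Transcript usage was called for 1 gene, *Lhx6* at 4 months (limma diffSplice adjusted p = 0.0446), where 0.997% of all genes tested were. The coding transcript ENSMUST00000136821.8 (chr2:36083684-36094273) held 10.9 ± 7.26% of *Lhx6* TPM in WT, from 2.83% to 16.9%, and 0% in all 3 *Gde2*KO libraries. *Lhx6* reads are spread over 9 similar transcripts, and the call was lost without either of WT 1 and 3 or *Gde2*KO 1 and 3 (adjusted p from 0.246 to 0.878), with a pseudocount of 5 (0.479), and with transcripts of a mean of 20 or more (0.999). The processed transcript ENSMUST00000140478.1 held 28.6% of *Gad1* TPM in 4-month *Gde2*KO 3 and at most 5.04% in any of the other 11 libraries, and *Gad1* was not called (limma diffSplice adjusted p = 0.259). At 19 months 0 of the members tested were called (0.171% of all genes). On simulated libraries of the 19-month depth this test found few of the changes put in, so its count of 0 there says little.

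**Figure D5:**
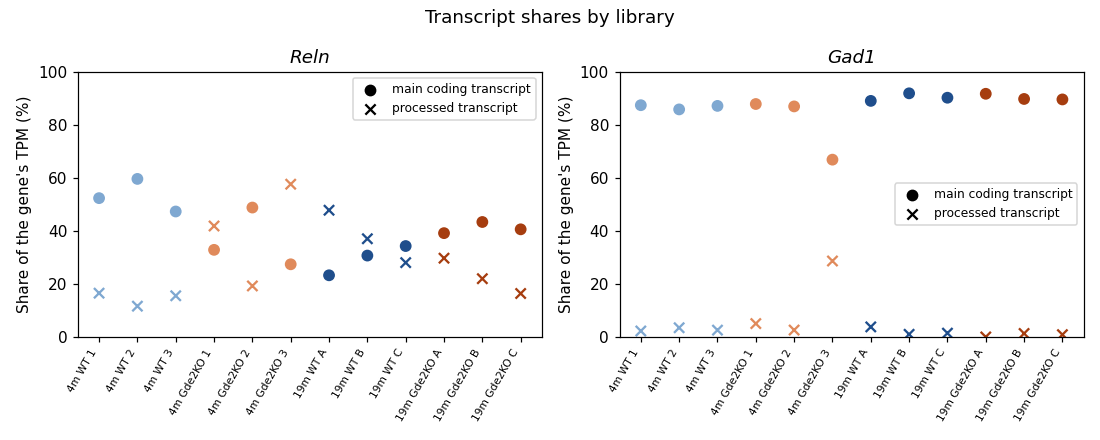
Share of *Reln* and *Gad1* TPM held by the main coding transcript (circles) and a processed transcript (crosses) in each of the 12 libraries (y axis, percent). The third 4-month *Gde2*KO library stands apart in *Gad1*, and the *Reln* coding share is higher in all 19-month *Gde2*KO than WT libraries. Usage of *Reln* was not called at either age.

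Further genes of interneurons were read as lists. Among 16 interneuron transcription factors, 18 other subtype markers, 5 genes of GABA reuptake and breakdown, 12 of fast-spiking channels and the perineuronal net, and 16 receptors for the peptides and reelin, 0 were called between genotypes at either age or in the interaction (limma). At 4 months the medians of their log2 fold changes were 0.43, 0.42, 0.14, -0.07 and -0.12, and at 19 months 0.08, 0.04, 0.09, -0.03 and 0.00, where all genes tested had 0.11 and -0.02. The smallest p of the subtype markers at 19 months was that of *Lamp5*, a gene of neurogliaform and superficial pyramidal cells, with 6840.3 to 8703 normalized counts in WT and 5266 to 6242 in *Gde2*KO (log2 -0.39 ± 0.10 SE, limma adjusted p = 0.504). *Acan*, the aggrecan of perineuronal nets, had 173 to 186 in WT and 124 to 133 in *Gde2*KO (-0.48 ± 0.14, limma adjusted p = 0.614). *Dlx5* had 93.2 to 123 and 152 to 216 (0.74 ± 0.19, limma adjusted p = 0.567), and the somatostatin receptor gene *Sstr4* 373 to 445 and 518 to 639 (0.49 ± 0.12, limma adjusted p = 0.513). The GABA transaminase gene *Abat* was 1.08-fold higher (limma adjusted p = 0.711). At 4 months the smallest p values of the lists other than the transcription factors were those of *Crh* (log2 1.88 ± 0.51 SE), *Cckbr* (1.86 ± 0.58), *Tnr* (-0.39 ± 0.16) and *Slc6a13* (0.97 ± 0.54), with limma adjusted p from 0.463 to 0.490.

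Between the ages more of these genes were called, where 13.7% of all genes tested were called in WT (6.29% higher) and 11.9% in *Gde2*KO. In WT, 1 of the 15 transcription factors tested rose and 3 fell, the latter being *Nkx2-1* (log2 -2.49), *Nr2f2* (-1.24) and *Adarb2* (-0.77). Of the subtype markers 3 rose and 5 fell, and the 5 of smallest adjusted p were *Cnr1* (-0.80), *Ndnf* (-1.33), *Nos1* (-1.22), *Lamp5* (2.25) and *Crh* (1.70). *Lamp5* had 717 and 1079 normalized counts in 4-month WT 1 and 2 and 5218 in WT 3. *Syt2*, a synaptotagmin of fast-spiking terminals, rose (log2 1.49), and *Hapln1* (-1.12) and *Vcan* (-0.75) of the perineuronal net fell. Among receptors *Cckbr* (1.94) and *Vipr1* (0.90) rose and *Npy2r* (-3.83) and *Sstr4* (-1.0) fell. The 4-month WT libraries spread widely for *Cckbr* (232 to 1539 normalized counts), *Npy2r* (236 to 1947) and *Sstr4* (412 to 1124). At 19 months WT had 1919 to 2362, 32.6 to 87.2 and 373 to 445, so the ages overlapped for *Sstr4*. Of the 8 hippocampal markers 6 fell in the same comparison. In *Gde2*KO, *Nkx2-1* (-2.27), *Nr2f2* (-1.12), *Calb1* (-1.0), *Tac1* (-2.23), *Penk* (-2.15), *Chodl* (-1.14) and *Hapln1* (-0.72) fell and 0 of these list genes rose. *Tac1* and *Penk* are also transcribed in striatal medium spiny neurons, and 8 of the 9 striatal markers were lower at 19 months without overlap in *Gde2*KO, 1 of them called.

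After each group's mean was taken away, the members moved together to different degrees across the 12 libraries. *Pvalb* and *Vip* were the most alike (Pearson r = 0.955), followed by *Sst* and *Vip* (0.877) and *Gad1* and *Pvalb* (0.858), and *Cck* and *Reln* were the least alike (-0.685). Over all 18731 genes the closest to each member were *Psd2* and *Tgfb3* for *Gad1* (0.980 and 0.965), *Pdpk1* and *Fam102b* for *Gad2* (0.925 and 0.921), *Kazn* and *Mapk4* for *Slc32a1* (0.978 and 0.974), *Crat* and *Csk* for *Lhx6* (0.971 and 0.956), and *Ttc9b* and *Catsperz* for *Pvalb* (0.986 and 0.985). For the peptides they were *Rps19bp1* and *Ptpa* for *Sst* (0.990 and 0.977), *Lrrc49* and *Fbxo3* for *Vip* (0.982 and 0.974), *Lhfp* and *Prdx6* for *Npy* (0.951 and 0.942) and *Polr2g* and *Apmap* for *Cck* (0.987 and 0.987), and for *Reln* they were *Pcdhb19* and *Vmn2r60* (0.952 and 0.945). These values share library composition and depth and describe the 12 libraries only.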

How the data were processed

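PolyA RNA of cortex was sequenced in 12 libraries, 3 per genotype and age, and p-values measure the spread between these libraries. The authors ran Kallisto on GRCm38 and Sleuth, and deposited transcript tables of signal values, estimated counts and TPM each divided by a size factor per library. The labels also list bcl2fastq 2.17, Trimmomatic 0.36 and STAR 2.5.2b.

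Transcripts were summed to genes. Genes with 5 normalized counts or more in at least 47% of libraries were tested in limma 3.58.1 (R 4.3.3) on log2(value + 0.5) with an intensity trend, per age on 6 libraries, and on all 12 for the interaction and the ages. Adjustment was by Benjamini and Hochberg, and a call needed 0.1 or less together with 0.5 in natural log (0.721 in log2), except in the interaction. Usage was tested with diffSplice (transcripts with a mean of 5 or more, shifts over 10 percentage points). The commonest low value of a library stood for 1 read. Scripts were tested on simulated data. Same-numbered libraries of 4 months correlated at 0.06, 0.01 and -0.05 and were not taken as pairs. Members and lists were chosen with earlier results of these data known. Named genes are the members, *Gdpd5*, called list genes (at most 5 per list and comparison), otherwise a list's smallest p, and the 2 genes most like each member. *Ppp1r1b* and *C1ql2* stand for marker lists that moved with members. Some list genes that this rule names are not reported here. Alternatives were other pseudocounts, filters, scalings, weights, thresholds and libraries left out.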

Additional observations from a re-analysis of the deposited data

How the results depend on the processing

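Of 1315 alternatives for single genes and ratios, 1241 kept the call, or moved an uncalled value by less than 1 SD, and of 141 for the counts 119 stayed within 1.5 times. In 0 did a called value turn its sign. An uncalled usage value was counted as kept however far it moved. The 141 include counts of ratios that passed their test, which were fixed at 0 because an exact p cannot go below 0.1 here. Counts of called interneuron genes changed as follows. With library quality weights, whose estimation stopped before convergence in most of the fits and which raised the calls among all genes to 2934 at 4 months and 8744 in the interaction, 4 members were called at 4 months, 9 in the interaction and 1 between ages in *Gde2*KO. Calling at adjusted p alone gave 3 between ages in *Gde2*KO, and 6053 among all genes. Between ages in WT, 1 was called without both shallow 19-month libraries (2440 among all genes) and 0 without 4-month WT 1 and 2 (517 among all genes), where a single 4-month WT library was left. *Lhx6* usage at 4 months was lost, leaving 0 called, with a pseudocount of 5 or a mean of 20 or more. Leaving out 1 library gave 0 to 3 called at 4 months (3 without WT 3), 0 to 0 at 19 months, 0 to 5 in the interaction (5 without 4-month WT 3), 1 to 2 between ages in WT, 0 to 2 between ages in *Gde2*KO, and 0 to 2 for usage at 4 months. Calls among all genes moved in the same fits, from 5 to 1510 at 4 months and from 6 to 2029 in the interaction, with 1510 and 2029 both without 4-month WT 3. They ran from 1525 to 3096 between ages in WT, from 1096 to 2851 in *Gde2*KO and from 83 to 659 for usage at 4 months. With the replicate block at 4 months, 0 genes were called and usage stayed called for 1, and the numbers pair nothing. No paired analysis was possible at 19 months because its columns carry no numbers. The depth of the shallow libraries limits 19-month usage. An overlap count without both shallow libraries, chosen after seeing the data, can only grow and is not used. With 3 libraries a group, exact tests cannot go below p = 0.1.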
